A study of Mus musculus with 8 samples.

Results

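The contacts described here are those of the promoters of Nodal, Tdgf1, Lefty1, Lefty2, Smad7 and Skil in mouse embryonic stem cells. They were measured by HiChIP for acetylated lysine 27 of histone H3 (H3K27ac), a mark of active promoters and enhancers. HiChIP joins neighbouring DNA ends by ligation inside the nucleus and pulls down the fragments that carry the mark, so a read pair records a contact of a marked site. The deposited table lists contacts as loops, each a pair of regions called anchors, with a count of read pairs in every library. A loop was taken for these genes when at least 1 of its anchors lay within 5 kb of an annotated transcription start of one of them in GRCm38. That rule gave 334 of 415681 loops, and all 6 genes had loops, each through 1 anchor.

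There were 8 libraries, 2 technical replicates from each of 4 lines of stem cells. Line B6 5-1, here B6, has the genotype C57BL/6J. Line D2 5-5, here D2, has the genotype DBA/2J. B6-13D2 was the congenic B6.D2-(rs30079041-rs51756099)/Bakr (QJ 6-1), with D2 DNA in an interval of chromosome 13 on a B6 genome. D2-13B6 was the reciprocal congenic D2.B6/Bakr (XE 2-4), for which the sample labels give the interval as rs29224292-rs13469455 and the series' design text as rs29224292-rs51756099. All lines were grown alike, in 15% fetal bovine serum with LIF, 1 μM PD0325901, an inhibitor of MEK, and 3 μM CHIR99021, an inhibitor of GSK3. Each genotype was 1 cell line, so an effect of the genotype and one of the line itself cannot be told apart, and p-values measure the spread between technical replicates. B6 and B6-13D2 are called the B6 background below, and D2 and D2-13B6 the D2 background, with 4 libraries each. The background effect is the mean of the D2 background minus that of the B6 background on the log2 scale, and the interval effect is the D2 allele minus the B6 allele of the chromosome 13 interval, averaged over both backgrounds. None of the 6 genes lies on chromosome 13, so the interval effect asks about an influence from another chromosome.

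Nodal is a secreted ligand of the TGF-beta family that signals through activin receptors to SMAD2 and SMAD3, and it needs the membrane-bound co-receptor Cripto, the product of Tdgf1. Lefty1 and Lefty2 are secreted antagonists that the pathway itself induces, which closes a negative feedback loop, and in the embryo these genes pattern the germ layers and the left-right axis. Smad7 and Skil (SnoN) act inside the cell as inhibitors of SMAD signalling and are known targets of the pathway. In embryonic stem cells the pathway is active and its target genes lie in acetylated chromatin.

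Promoter sequences are shown for Tdgf1 and the ligand Nodal, the 2 of the 6 genes that had an entry in the promoter table used. Among the 6 promoters, Tdgf1 had the largest difference between backgrounds and Nodal that nearest to 0. A link between the motifs and these differences was not tested. The sequences are the 250 bases before the RefSeq start on GRCm38.p6. The Nodal sequence lies at chr10:61417722-61417971 on the forward strand and the Tdgf1 sequence at chr9:110946159-110946408 on the reverse strand, both inside the anchors described below. Capitals mark matches to any of 5 motifs searched on both strands, the SMAD element CAGAC, the FOXH1 element AATNNACA, the octamer ATGCAAAT, the TCF/LEF element TTCAAAG and the GC box GGGCGG.
Nodal: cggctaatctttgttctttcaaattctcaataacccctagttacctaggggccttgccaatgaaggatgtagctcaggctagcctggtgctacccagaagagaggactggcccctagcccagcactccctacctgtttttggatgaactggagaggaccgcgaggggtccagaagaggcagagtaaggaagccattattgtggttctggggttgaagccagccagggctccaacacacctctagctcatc
Tdgf1: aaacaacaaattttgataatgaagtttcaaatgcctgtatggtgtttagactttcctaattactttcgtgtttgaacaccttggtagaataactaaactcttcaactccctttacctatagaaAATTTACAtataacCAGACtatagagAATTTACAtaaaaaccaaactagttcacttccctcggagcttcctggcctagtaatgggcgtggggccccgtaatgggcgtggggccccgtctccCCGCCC
The Tdgf1 sequence held the FOXH1 letters at 2 places, -127 to -120 and -101 to -94 from the start, and the SMAD letters at 1 place between them, -113 to -109. It also held 1 GC box on the reverse strand next to the start, at -6 to -1. None of these matches overlapped another. The Nodal sequence had 0 matches to the 5 motifs in this window. Of 32536 RefSeq sequences of the same length and position, 10.9% held the FOXH1 letters, 42.2% the SMAD letters, 33.0% the GC box, 4.47% the TCF/LEF letters and 1.62% the octamer.

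Library totals ran from 737955 to 1425304 counts, and the D2-13B6 libraries were the deepest. The share of counts on chromosome 11, which holds none of the 6 genes, was 13.9% and 14.0% in D2-13B6, while the remaining 6 libraries had 10.0% to 10.6%. All 10 embryonic stem cell markers looked up had a tested promoter anchor, against 0 of 5 endoderm, 0 of 3 mesoderm, 0 of 3 neural, 1 of 4 trophoblast and 2 of 5 fibroblast markers. The trophoblast marker was Cdx2, at 5.34 to 6.87 CPM as line means, and the summed level of the fibroblast list, nearly all from Col1a1 and Col1a2, was 34.4 to 46.4 CPM, against 2200 to 2730 CPM for the stem cell list. The Col1a1 anchor, on chromosome 11, was lower with the D2 interval allele (-0.62, SE 0.170, FDR 0.0137), where 6.15% of all tested anchors were called. The Col1a2 anchor went the other way and was not called (0.33, SE 0.223, FDR 0.45). Of the 10 stem cell marker anchors, 3 were higher in the D2 background, namely Sox2 (0.48, FDR 4.22e-06), Esrrb (0.27, FDR 0.00538) and Klf4 (0.39, FDR 0.00879; 0.11 with DESeq2), where 24.8% of all tested anchors were called. In the interaction of background and interval, Pou5f1 (-0.59, FDR 0.0134) and Sox2 (-0.58, FDR 0.0287) were lower, where 4.74% of all anchors were called (1.05% higher, 3.69% lower). Both calls depended on the scaling, as did the direction of the interaction calls over all anchors. Both were kept with RLE scaling, with DESeq2 and without chromosome 11 (FDR 0.0105 to 0.0312). They were lost with library totals (-0.38, FDR 0.104, and -0.36, FDR 0.175) and with the trend of fold change on abundance removed (-0.11, FDR 0.76, and -0.22, FDR 0.551). The part of these differences in the results for the 6 genes was not tested.

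The 6 promoters stood at different levels of contact. The count of all loops touching an anchor was summed and scaled to the library's total of such sums (CPM), and levels were compared between genes per kilobase of anchor. Lefty2 had the highest level, at 9.09 ± 0.963 CPM per kb (SD, n = 8 libraries), followed by Nodal at 7.14 ± 1.01 and Tdgf1 at 6.54 ± 1.59. Lefty1 had 5.32 ± 1.15, Smad7 4.50 ± 0.428 and Skil 2.61 ± 0.464 CPM per kb. Lefty2 thus stood at percentile 94.1 of the 21211 tested anchors and Skil at percentile 48.8. Over libraries, each gene's range overlapped that of the next in this order, except that the range of Skil (1.97 to 3.2) lay below that of Smad7 (3.84 to 5.08). The highest Skil library still lay above the lowest Lefty1 library, at 3.05 CPM per kb. The share of an anchor's counts that joined points inside it also varied by gene, from 39.3% to 59.4% over libraries at Tdgf1, 36.3% to 44.7% at Smad7 and 24.6% to 32.7% at Nodal. At Lefty1 it was 11.1% to 19.5%, at Skil 1.56% to 13.1% and at Lefty2 3.43% to 8.53%. Anchors ranged from 15 kb at Lefty2 and Skil to 60 kb at Smad7, and longer anchors can hold more inside pairs, since listed pairs were at least 10 kb apart.

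Most loops of these genes were sparse. Only 1 count in all was recorded for 55 of the 334, and 74 passed the filter of at least 5 counts in at least 2 libraries. Those 74 held 88.7% of the counts of all 334. The other 260 had at most 23 counts in total and a median of 4. Of the 74, 6 lay inside the genes' own anchors, 43 led to an anchor at the start of another protein-coding gene, 1 joined Lefty1 to Lefty2 and 24 led to other anchors. Outside their own anchors, tested partners lay up to 1740 kb from the gene's start, with a median of 126 kb.

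Between backgrounds, 7 of the 74 tested loops were called, meaning past a false discovery rate (FDR) of 0.05 in edgeR's quasi-likelihood test over all 44706 tested loops. Of these, 5 were higher and 2 lower in the D2 background. The 7 make 9.46% of the tested loops of these genes, and 8.85% of all tested loops were called (4.28% higher, 4.57% lower), so the share was near that of all loops. The median log2 fold change was 0.14 over the 74 loops and 0.021 over all. Of the 6 promoter anchors, 2 were called, Tdgf1 and Lefty1, both higher in the D2 background, where 24.8% of all tested anchors were called (11.9% higher, 12.9% lower). Their median was 0.23 over the 6 anchors and 0.0060 over all.

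**Figure D1:**
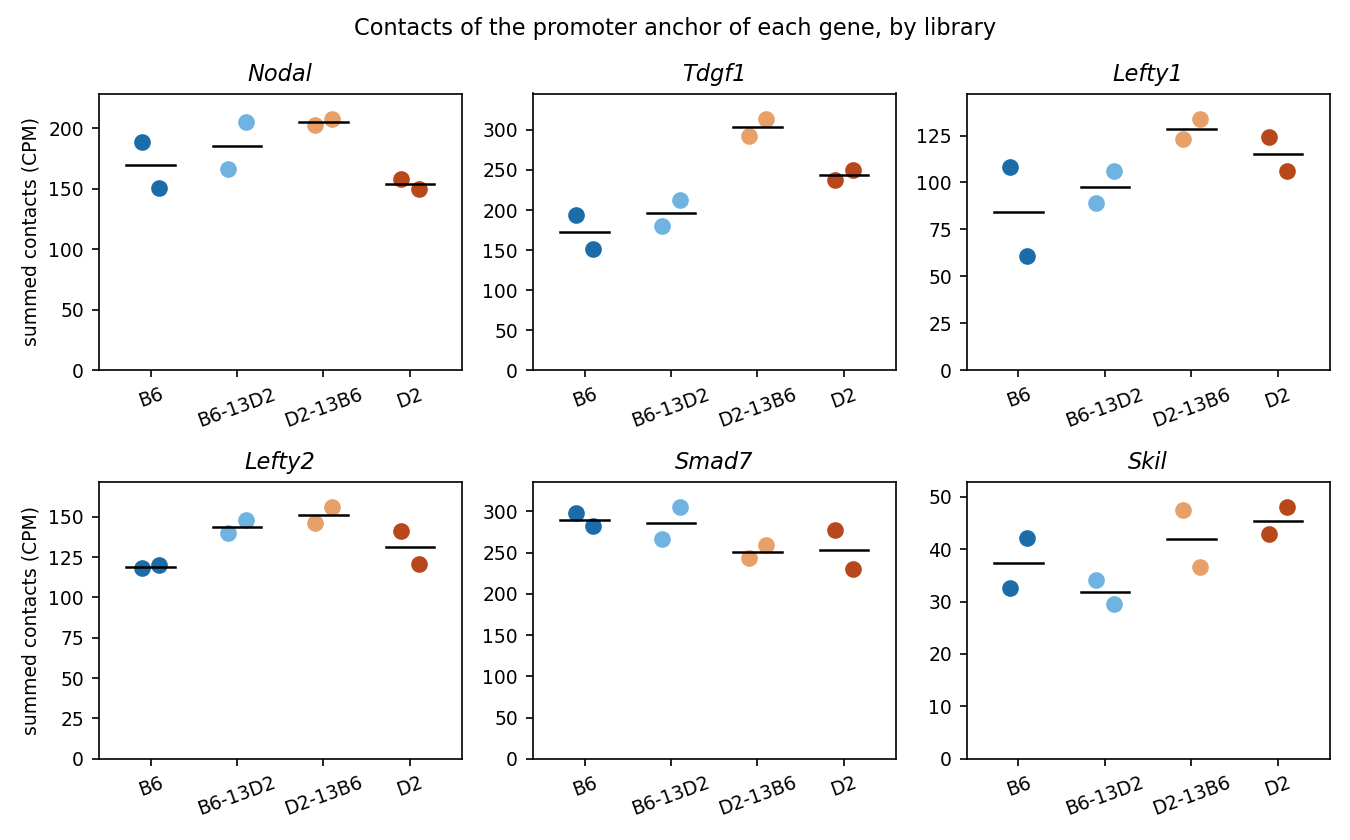
Summed contacts of each promoter anchor in CPM (vertical axes from 0, each with its own scale) in the 2 libraries of each of the 4 lines (points) with the line mean (bar). At Tdgf1 the 4 libraries of the D2 background, at 238 to 314 CPM, lie above the 4 of the B6 background, at 151 to 212 CPM, while the backgrounds overlap at the other 5 genes.

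Nodal (ENSMUSG00000037171, start at 61417972 on the forward strand of chromosome 10) lay in an anchor at chr10:61400001-61425000, which held no start of another gene. Its contacts did not differ detectably between backgrounds. The anchor had 189 and 151 CPM in B6, 166 and 205 in B6-13D2, 203 and 208 in D2-13B6, and 158 and 150 in D2. The D2 and B6 libraries thus overlapped, and both D2-13B6 libraries lay above both D2 libraries. The background effect was -0.0041 (SE 0.0888, edgeR FDR 0.982), and the 5-kb bin that held the start gave -0.0003 (SE 0.118, FDR 0.999). Nodal had 78 loops, 11 of them tested, and 0 were called in any of 7 contrasts by edgeR.

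The strongest contacts of Nodal were inside its own anchor, with 92.7 ± 14.6 CPM for B6, 91.3 ± 2.43 for B6-13D2, 107 ± 4.64 for D2-13B6 and 72.0 ± 5.10 for D2 (SD, n = 2 each). The next loop led 34.5 kb downstream to the start of Eif4ebp2, which encodes a repressor of cap-dependent translation (chr10:61445001-61460000). Its counts were 50 and 27 in B6, 51 and 82 in B6-13D2, 82 and 79 in D2-13B6, and 37 and 35 in D2. Scaled to depth the backgrounds overlapped, and the background effect was 0.018 (SE 0.163, FDR 0.971). The third led 63.0 kb upstream into the body of Pald1 (chr10:61350001-61360000; -0.074, SE 0.203, FDR 0.890). Around Nodal, 4 of 9 tested anchors within 250 kb were lower in the D2 background and 0 higher. Among the 4 was that at the starts of Ppa1 and Sar1a (-0.39, SE 0.111, FDR 0.00508). Over all tested anchors, 12.9% were called lower and 11.9% higher.

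The anchor of Nodal was called in the contrast of the interval alleles within the D2 background. D2 minus D2-13B6 was -0.42 (SE 0.125, FDR 0.0287), the 1 call among the 6 anchors in that contrast, in which 5.69% of all tested anchors were called (1.45% higher, 4.24% lower). That split, 308 higher and 899 lower, depended on the scaling. It was 657 and 509 with library totals, which moved the median of all anchors by 0.12, 385 and 542 with the abundance trend removed, and 39 and 530 with DESeq2. Nodal was -0.29 with library totals (FDR 0.125) and -0.24 with the trend removed (FDR 0.249). B6-13D2 minus B6 was 0.13 (SE 0.126, FDR 0.648), and the test of the difference between them, the interaction, gave -0.54 (SE 0.178, FDR 0.0581) and was not called. The call was lost with library totals alone, with the abundance trend removed, with DESeq2 and with the replicate number as a block. It was also lost, leaving 0 called anchors, when any 1 of the 4 libraries of D2 and D2-13B6 was left out.

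Tdgf1 (ENSMUSG00000032494), the Cripto co-receptor, had the largest difference of the 6. Its 4 annotated starts lie between 110944871 and 110946158 on the reverse strand of chromosome 9, in an anchor at chr9:110935001-110970000. That anchor also holds the start of the neighbouring gene Lrrc2 and reaches into its body. The anchor's sum was 194 and 151 CPM in B6, 180 and 212 in B6-13D2, 292 and 314 in D2-13B6, and 238 and 250 in D2. Every library of the D2 background lay above every library of the B6 background. On the log2 scale the difference was 0.55 (SE 0.0855, edgeR FDR 1.42e-07).

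A single loop carried most of this. It joined the Tdgf1 anchor to chr9:110975001-110980000, a 5-kb anchor 31.3 kb upstream of the first Tdgf1 start, inside the body of Lrrc2 and beside the start of the unclassified transcript Gm43535. It had 28 and 17 counts in B6, 28 and 28 in B6-13D2, 197 and 211 in D2-13B6, and 102 and 87 in D2. In depth-scaled terms these were 25.7 ± 4.41 CPM in B6 and 24.8 ± 5.77 in B6-13D2 against 148 ± 5.79 in D2-13B6 and 117 ± 4.86 in D2 (SD, n = 2 each). The backgrounds did not overlap, and the lines of the B6 background lay close to each other. Both D2-13B6 libraries lay above both D2 libraries, a difference that was not called (D2 minus D2-13B6 -0.34, SE 0.161, FDR 0.46). The background effect was 2.38 (SE 0.157, FDR 5.24e-49), rank 22 of 44706 by p-value. With the interval allele fixed, D2-13B6 minus B6 gave 2.50 (SE 0.216, FDR 1.40e-27) and D2 minus B6-13D2 gave 2.27 (SE 0.226, FDR 1.17e-20). The interval effect on this loop was -0.22 (SE 0.175, FDR 0.709), and the loop stayed called for background in all 16 alternative fits, at 2.26 to 2.48.

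The counts of this loop were not spread evenly over the Tdgf1 anchor. In the deposited counts per pair of 5-kb bins, the bin nearest the partner, chr9:110965001-110970000, held 69.2% of the loop's counts in the D2 background and 46.5% in the B6 background. Its rate was 8.14 times as high in the D2 background (exact 95% interval 6.01 to 11.2, for counting error only). The 2 bins that hold the Tdgf1 starts, chr9:110940001-110950000, gave 8.21% and 14.9% of the counts and a ratio of 3.02 (1.67 to 5.81). The other 4 bins gave a ratio of 3.20 (2.23 to 4.70). The bin nearest the partner lies in the body of Lrrc2 and holds no Tdgf1 start, so the largest part of the loop joined points inside Lrrc2, and the part from the Tdgf1 starts was smaller but also higher in the D2 background.

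**Figure D2:**
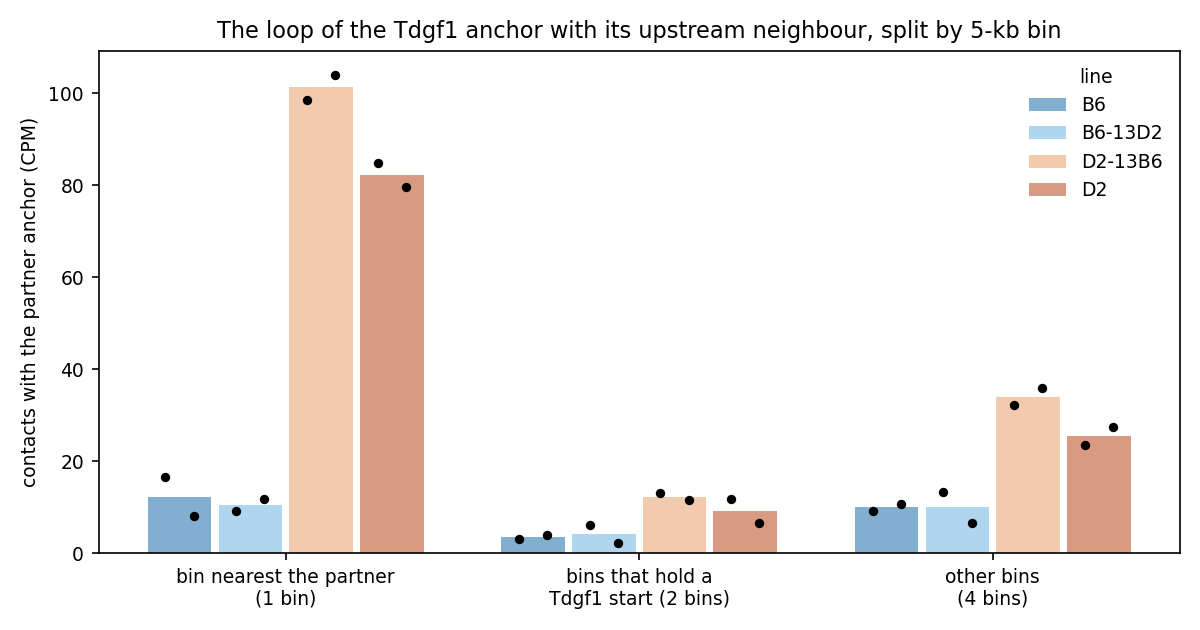
Contacts in CPM (vertical axis from 0) of the Tdgf1 anchor with the anchor 31.3 kb upstream, split by the 5-kb bins of the Tdgf1 anchor. Bars are means of the 2 libraries of a line and points the libraries. The bin nearest the partner reaches 82.2 CPM in D2 and 101 CPM in D2-13B6 against 12.2 CPM in B6 and 10.5 CPM in B6-13D2.

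Apart from that loop, no contact of Tdgf1 was called. With the loop left out of the sum, the anchor's background effect was 0.19 (SE 0.0888, FDR 0.114), an alternative chosen after the data were seen. Leaving out a loop called higher in these same libraries lowers the value by construction. The sums of the 2 bins that hold the Tdgf1 starts, over all partners, gave 0.12 (SE 0.165, FDR 0.652) and 0.19 (SE 0.119, FDR 0.270). Contacts inside the anchor were the strongest of the gene, at 158 ± 33.3 CPM for B6, 188 ± 20.7 for B6-13D2, 201 ± 10.4 for D2-13B6 and 170 ± 6.78 for D2, with a background effect of 0.092 (SE 0.104, FDR 0.686). The third loop by level led 48.8 kb upstream to an anchor at the start of Rtp3 (0.37, SE 0.182, FDR 0.226). Of 54 Tdgf1 loops, 14 were tested and 1 was called. Of the 6 tested anchors within 250 kb, 4 were higher in the D2 background and 0 lower, against 11.9% and 12.9% of all tested anchors. The 4 were the partner of the called loop itself (2.06, SE 0.137, FDR 6.34e-24), that at Rtp3, that at Lrrfip2 (0.78, SE 0.276, FDR 0.0272) and 1 at a pseudogene. Outside the called loop, the partner anchor had 7 to 31 counts in a library.

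**Figure D3:**
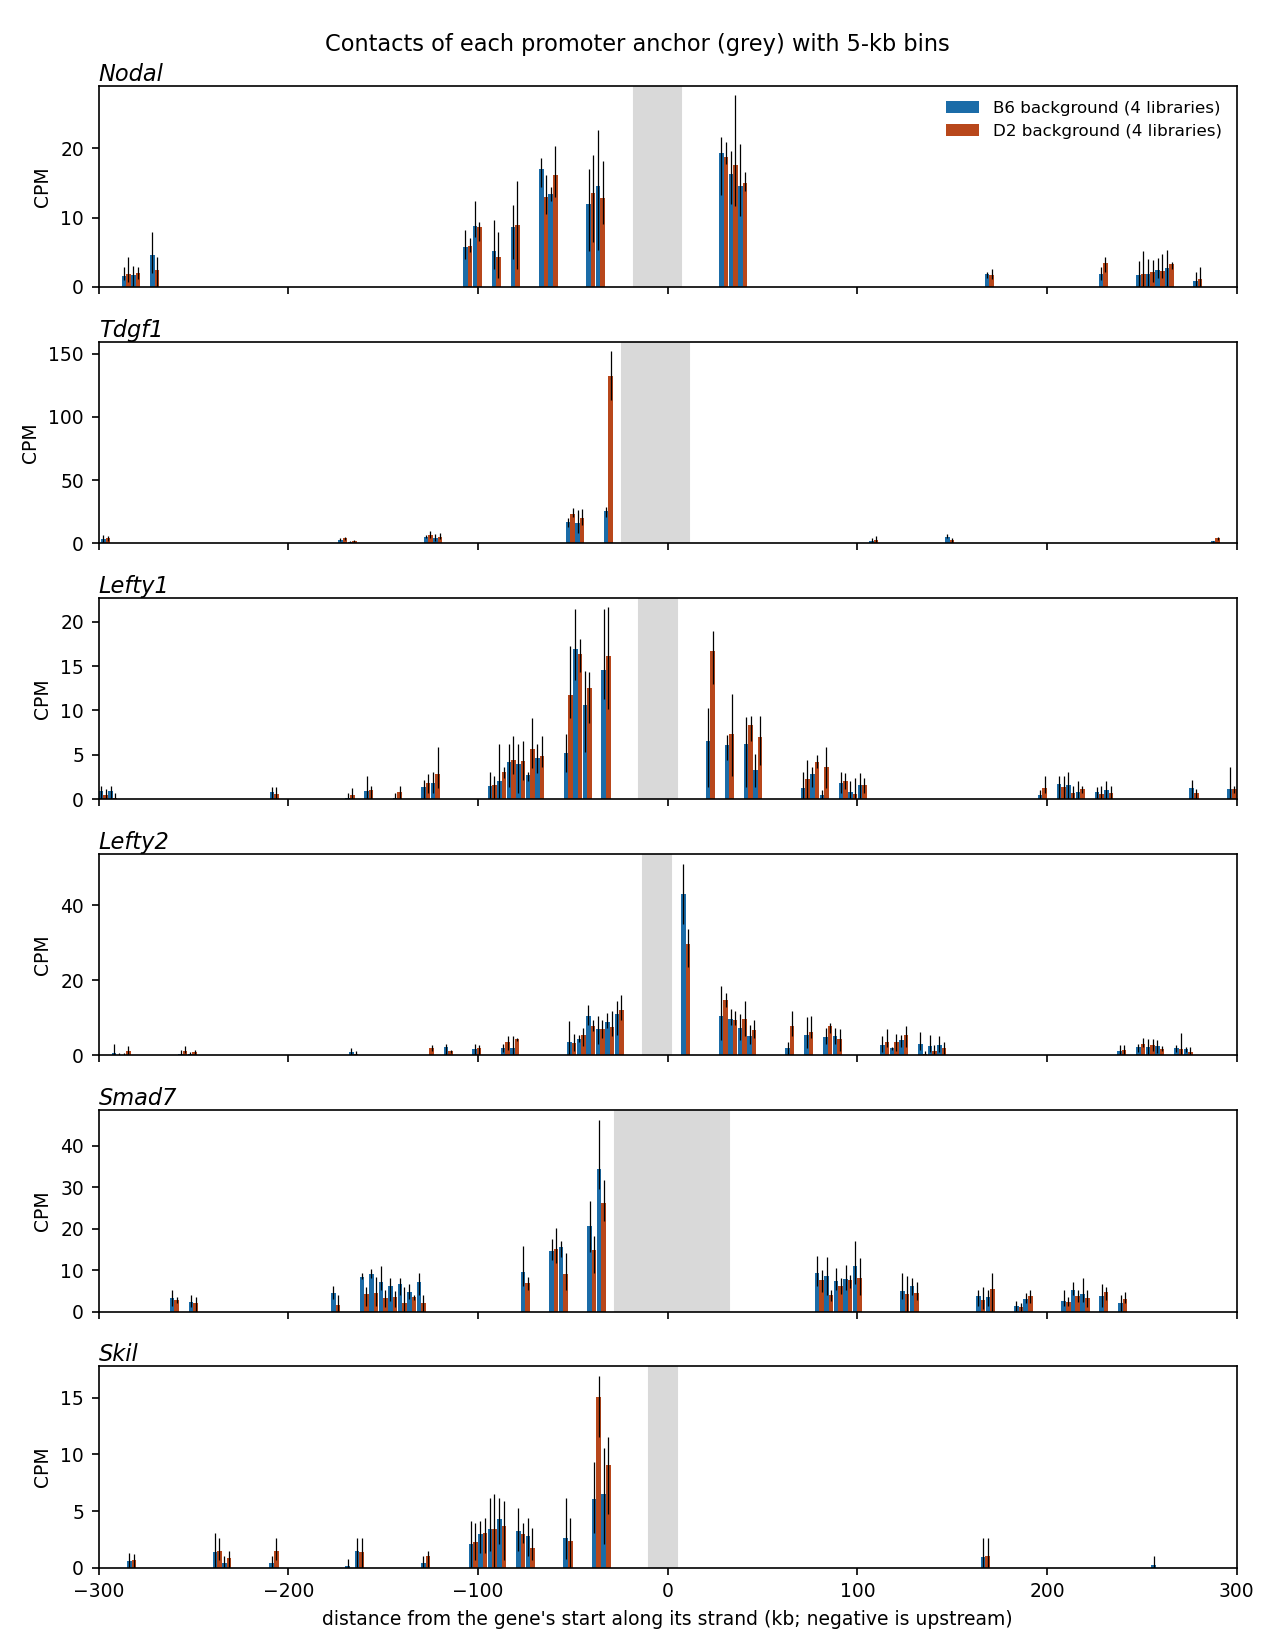
Contacts in CPM (vertical axes from 0, own scale for each gene) of the 6 promoter anchors with 5-kb bins listed within 300 kb, by distance from the gene's start along its strand in kb. Bars are means over the 4 libraries of a background, thin lines span the lowest to the highest library, and the grey band is the anchor itself. The single bin upstream of Tdgf1 stands at 20.7 to 28.8 CPM in the B6 background and 113 to 152 CPM in the D2 background.

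The antagonist genes Lefty1 (ENSMUSG00000038793, first start at 180935022) and Lefty2 (ENSMUSG00000066652, first start at 180893108) lie side by side on the forward strand of chromosome 1, 41.9 kb apart. Their anchors, chr1:180920001-180940000 and chr1:180880001-180895000, contacted each other. The Lefty1 anchor also lies within 5 kb of the start of Tmem63a, an ion channel gene. The loop between them had 33 and 18 counts in B6, 31 and 56 in B6-13D2, 56 and 61 in D2-13B6, and 34 and 29 in D2. Scaled to depth this was 28.9 ± 7.12, 36.6 ± 6.66, 42.4 ± 2.17 and 39.0 ± 1.62 CPM in the same order (SD, n = 2 each), and the backgrounds overlapped. Between backgrounds the difference was 0.29 (SE 0.186, FDR 0.384) and the interval effect 0.11 (SE 0.186, FDR 0.908). The genes are paralogs, and 3 stretches of at least 150 bp with at least 90% identity cover 4.83% of the Lefty1 anchor, the longest of 784 bp, with 0 such stretches at 95%. How the authors treated reads that fit both copies is not given in the sources used here.

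The Lefty1 anchor rose in the D2 background. It had 108 and 61.0 CPM in B6, 89.3 and 106 in B6-13D2, 123 and 134 in D2-13B6, and 124 and 106 in D2. The second B6 library was the lowest of all, and the first overlapped the D2 libraries. This gave a background effect of 0.40 (SE 0.106, edgeR FDR 0.00216). Without the second B6 library it was 0.24 (FDR 0.0794), without the first D2 library 0.35 (FDR 0.0611), and with DESeq2 0.42 (FDR 0.237). Without the first B6 library it was 0.65 (FDR 1.96e-06). The size thus turns on which B6 library is kept, and the call was lost in 3 of 17 alternative fits. The 5-kb bin that holds both Lefty1 starts was called too, at 0.52 (SE 0.166, FDR 0.0132), where 23.9% of tested bins were called (11.7% higher, 12.2% lower). Its sums were 39 and 28 counts in B6, 27 and 49 in B6-13D2, 74 and 69 in D2-13B6, and 44 and 38 in D2.

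The loop of Lefty1 that was called between backgrounds led 22.5 kb downstream, to chr1:180955001-180960000, beside a start of Tmem63a. It had 6 and 1 counts in B6, 8 and 14 in B6-13D2, 23 and 25 in D2-13B6, and 16 and 10 in D2. Scaled to depth, the 4 libraries of the D2 background lay above the 4 of the B6 background. The difference was 1.41 (SE 0.336, FDR 0.000819), and the partner anchor as a whole rose by 0.91 (SE 0.159, FDR 2.71e-06). The loop gave 2.16 without the first B6 library (FDR 0.00111). With the interval allele fixed, D2-13B6 minus B6 gave 2.07 (SE 0.503, FDR 0.00182), which was 1.46 without the second B6 library (FDR 0.132) and 3.58 without the first (FDR 0.00627). D2 minus B6-13D2 gave 0.76 (SE 0.428, FDR 0.426) and the interaction -1.31 (SE 0.696, FDR 0.592), neither called. Without this loop the Lefty1 anchor still gave 0.34 (SE 0.106, FDR 0.0107). The same partner region contacted Lefty2, 64.4 kb from its start, with 3 and 1 counts in B6, 0 and 5 in B6-13D2, 7 and 12 in D2-13B6, and 5 and 9 in D2 (1.74, SE 0.507, FDR 0.0111). These 2 loops share their partner anchor and are not independent. The Lefty2 loop lost its call in 5 of 14 alternative fits, with no filter (FDR 0.175) and without the second B6, the second D2, the first B6-13D2 or the second D2-13B6 library (1.35 to 1.55, FDR 0.0532 to 0.155), and was 3.83 without the second B6-13D2 library (FDR 0.00183), while the Lefty1 loop kept it in 15 of 16 alternative fits, the exception being DESeq2 (1.45, FDR 0.0741).

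Lefty2 itself was not called between backgrounds. Its anchor held 118 and 120 CPM in B6, 140 and 148 in B6-13D2, 146 and 156 in D2-13B6, and 141 and 121 in D2. The B6 libraries were the lowest, the D2 libraries lay below those of D2-13B6, and the backgrounds overlapped. The background effect was 0.10 (SE 0.0920, edgeR FDR 0.469). Its strongest loop led 38.1 kb upstream to the anchor at the start of Sde2, a gene of genome maintenance (-0.041, SE 0.172, FDR 0.93). The loop to chr1:181025001-181040000 near Ephx1, an epoxide hydrolase gene, was lower in the D2 background (-1.46, SE 0.477, FDR 0.0308), from 8 and 6 counts in B6, 8 and 12 in B6-13D2, 7 and 6 in D2-13B6, and 3 and 0 in D2. That call was lost in 6 of 14 alternative fits, with no filter (FDR 0.44) and without either B6 library, the second D2, the second B6-13D2 or the second D2-13B6 library (-1.01 to -1.47, FDR 0.0578 to 0.233), and was -3.50 without the first D2 library (FDR 0.0103).

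Another Ephx1 anchor, chr1:181005001-181020000, contacted Lefty1 more in D2-13B6, at 16 and 18 counts, than in B6, at 5 and 1 (1.79, SE 0.562, FDR 0.0300). That call was lost in 5 of 15 alternative fits, with no filter (FDR 0.23) and without any 1 of the 4 libraries compared (1.23 to 3.09, FDR 0.0536 to 0.325). D2 minus B6-13D2 gave 0.51 for the same loop (SE 0.569, FDR 0.768) and the interaction -1.28 (SE 0.831, FDR 0.709). The other strong loops of Lefty1 were that inside its anchor (0.50, SE 0.213, FDR 0.135) and that with the Sde2 anchor, 80.0 kb upstream (0.31, SE 0.232, FDR 0.478). Around Lefty1 and Lefty2, 16 tested anchors lay within 250 kb of each gene. Of those around Lefty1, 2 were higher and 2 lower in the D2 background, and of those around Lefty2, 3 were higher and 1 lower. The lower ones lay at Nvl and Cnih4, beyond Ephx1. Over all tested anchors, 11.9% were called higher and 12.9% lower.

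Smad7 (ENSMUSG00000025880, 5 starts between 75367529 and 75374914 on the forward strand of chromosome 18) had the longest anchor, chr18:75340001-75400000. Contacts inside it had the highest mean CPM over the 8 libraries among the loops of the 6 genes (186, against 179 inside the Tdgf1 anchor), at 182 ± 0.565 CPM for B6, 183 ± 5.38 for B6-13D2, 182 ± 7.01 for D2-13B6 and 196 ± 30.8 for D2 (SD, n = 2 each; background effect 0.055, SE 0.103, FDR 0.827). The anchor's sum was 298 and 282 CPM in B6, 267 and 305 in B6-13D2, 243 and 259 in D2-13B6, and 277 and 230 in D2. The backgrounds overlapped through the first D2 library and the first B6-13D2 library, and the background effect of -0.19 was not called (SE 0.0815, FDR 0.0745). It was called in 5 of 17 alternative fits, at -0.20 to -0.26.

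The anchors around Smad7 were lower in the D2 background almost throughout. Of 13 tested within 250 kb, 9 were called lower and 0 higher, and the median was -0.48. Over all tested anchors, 12.9% were called lower and 11.9% higher. A loop between 2 anchors counts at both, so neighbouring anchors are not independent of each other or of Smad7. The most certain of the 9 was chr18:75205001-75240000 in the body of Dym, the gene upstream (-0.91, SE 0.0906, FDR 2.64e-14). Its loop with Smad7, over 145 kb, had 45 and 34 counts in B6, 51 and 72 in B6-13D2, 35 and 31 in D2-13B6, and 22 and 15 in D2. Every library of the B6 background, at 45.2 to 53.2 CPM, lay above every library of the D2 background, at 19.6 to 25.9 CPM. The background effect was -1.07 (SE 0.191, FDR 1.82e-06), called in all 16 alternative fits. D2-13B6 minus B6 gave -0.93 (SE 0.263, FDR 0.0111) and D2 minus B6-13D2 gave -1.2 (SE 0.277, FDR 0.00117). The former was lost in 5 of 16 alternative fits, with no filter (FDR 0.418), with DESeq2 (FDR 0.113) and without either B6 library or the second D2-13B6 library (-0.83 to -0.96, FDR 0.0526 to 0.157). The latter was lost in 2, with DESeq2 (FDR 0.0868) and without the second D2 library (-1.01, FDR 0.102). Without this loop the Smad7 anchor gave -0.12 (SE 0.0824, FDR 0.321). The loop was left out because it was called lower in these same libraries, so a value nearer 0 was fixed in advance. The loop of Smad7 with chr18:75325001-75335000, 37.5 kb upstream, was lower in D2-13B6 than in B6 (-0.84, SE 0.227, FDR 0.00691). It had 53 and 44 counts, or 38.7 and 31.7 CPM, in D2-13B6, and 65 and 44 counts, or 66.9 and 58.5 CPM, in B6. Its averaged background effect was -0.43 (SE 0.164, FDR 0.0813). D2 minus B6-13D2 gave -0.018 (SE 0.239, FDR 0.988), and the interaction 0.82 (SE 0.331, FDR 0.364). The call was lost in 4 of 16 alternative fits, with no filter (FDR 0.371), with DESeq2 (FDR 0.0942) and without the first B6 library (-0.75, FDR 0.165) or the second D2-13B6 library (-0.69, FDR 0.181). The loop with chr18:75445001-75470000, downstream of the gene, gave -0.40 (SE 0.180, FDR 0.158).

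Skil (ENSMUSG00000027660, 5 starts between 31095058 and 31096833 on the forward strand of chromosome 3) had the fewest contacts. Its anchor, chr3:31085001-31100000, had 32.5 and 42.2 CPM in B6, 34.1 and 29.5 in B6-13D2, 47.4 and 36.5 in D2-13B6, and 42.8 and 48.0 in D2. The backgrounds overlapped, and the background effect was 0.35 (SE 0.140, FDR 0.0541), called in 6 of 17 alternative fits. The strongest loop led 35.1 kb upstream to chr3:31055001-31065000, where no start is annotated, with 10 and 15 counts in B6, 5 and 20 in B6-13D2, 36 and 32 in D2-13B6, and 18 and 20 in D2. In CPM the D2 background lay above the B6 background in every library, by a small margin at the second B6 library (19.9 against 21.2 CPM in the first D2 library). This gave 0.94 for background (SE 0.256, FDR 0.00518), and it was lost in 5 of 16 alternative fits, with no filter (FDR 0.0692), with DESeq2 (FDR 0.177) and without the first B6, the second D2 or the first B6-13D2 library (0.70 to 0.88, FDR 0.0527 to 0.123) and was 1.47 without the second B6-13D2 library (FDR 0.000728).

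Contacts inside the Skil anchor rose by 1.61 (SE 0.560, FDR 0.0469) from 1 to 3 counts per library in the B6 background to 3 to 14 in the D2 background, where they overlapped. That call was lost in 7 of 12 alternative fits, among them those without either B6 library or the second B6-13D2 library (1.21 to 1.69, FDR 0.0749 to 0.231). Without these 2 loops the Skil anchor gave -0.00087 (SE 0.165, FDR 0.998). The 2 loops were left out because they were called higher in these same libraries, so a lower value was fixed in advance. The 5-kb bin with the Skil starts was called at 0.65 (SE 0.205, FDR 0.0119), so that 2 of the 8 bins holding a start of the 6 genes were called, where 23.9% of all tested bins were. For the interval 0 of the 8 were called, where 4.59% of all bins were (1.89% higher, 2.7% lower). Of 8 tested anchors within 250 kb of Skil, whose median was -0.011, 2 were lower in the D2 background and 0 higher, at Prkci, a protein kinase C gene (-0.47, SE 0.0913, FDR 2.71e-05), and at chr3:31015001-31025000 (-0.43, SE 0.111, FDR 0.00180). The same 2 were called higher for the interval effect (0.31, FDR 0.0281, and 0.44, FDR 0.0068), the only such calls among the neighbours of the 6 genes within 250 kb. The loops of Skil with these 2 anchors gave -0.056 (SE 0.293, FDR 0.945) and -0.39 (SE 0.455, FDR 0.699) for background. Over all tested anchors, 12.9% were called lower for background and 2.9% higher for the interval.

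The allele of the chromosome 13 interval gave 0 calls among the 74 loops, where 0.989% of all tested loops were called (0.445% higher, 0.544% lower), and 0 among the 6 anchors, where 6.15% were (2.9% higher, 3.25% lower). At an unadjusted p under 0.05 there were 3 of 74 loops and 0 of 6 anchors in edgeR, against 10.6% of all loops and 19.3% of all anchors, and DESeq2 gave 0 calls as well. The interval effects of the anchors ran from -0.15 (SE 0.0890, FDR 0.378) at Nodal to 0.036 (SE 0.0920, FDR 0.887) at Lefty2. Tested in each background, B6-13D2 minus B6 called 0 loops, where 0.879% of all were called (0.561% higher, 0.318% lower), and 0 anchors, where 5.25% were (3.47% higher, 1.79% lower). Its 735 higher and 379 lower anchors became 428 and 578 with library totals, 431 and 411 with the trend removed and 334 and 74 with DESeq2, and its 251 higher and 142 lower loops 95 and 167 with the trend removed and 115 and 24 with DESeq2. D2 minus D2-13B6 called 0 loops, where 0.91% of all were called (0.188% higher, 0.722% lower), and the Nodal anchor. These 84 higher and 323 lower loops became 123 and 191 with the trend removed and 20 and 180 with DESeq2. At an unadjusted p under 0.05 these edgeR contrasts gave 2 and 6 of the 74 loops, against 9.91% and 9.69% of all loops, and 1 and 2 of the 6 anchors, against 18.9% and 17.8% of all anchors. The interaction called 0 loops, where 0.602% of all were called (0.0537% higher, 0.548% lower), and 0 anchors, where 4.74% were (1.05% higher, 3.69% lower). The direction of these calls depended on the scaling. The 222 higher and 783 lower anchors became 504 and 291 with library totals, which moved the median of all anchors from 0.028 to 0.24, 196 and 176 with the trend removed, and 16 and 571 with DESeq2. The 24 higher and 245 lower loops became 45 and 45 with the trend removed. It had 7 of 74 loops and 3 of 6 anchors under an unadjusted p of 0.05 in edgeR, against 8.97% of all loops and 17.3% of all anchors, and DESeq2 also called 0 of each. The 3 anchors were Nodal (-0.54, SE 0.178, FDR 0.0581), Tdgf1 (-0.50, SE 0.171, FDR 0.0722) and Lefty2 (-0.48, SE 0.184, FDR 0.127). With library totals they gave -0.33, -0.29 and -0.26, and with the trend removed -0.22, -0.14 and -0.20, at FDR 0.259 or higher. In all 3, D2-13B6 was the highest line. D2-13B6 libraries were also the deepest, and the part of depth in this was not tested.

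**Figure D4:**
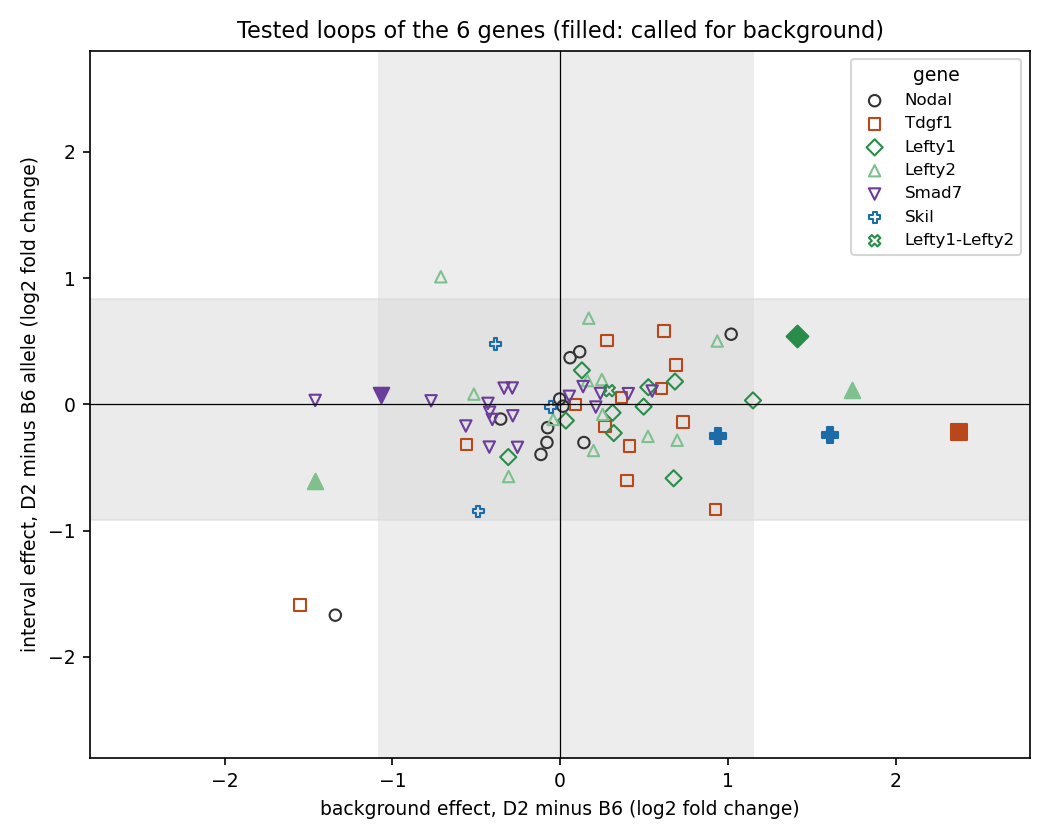
Log2 fold changes of the 74 tested loops for the background effect (horizontal axis) and the interval effect (vertical axis), by gene. Filled symbols are the 7 loops called for background, and grey bands span percentiles 5 to 95 of all 44706 tested loops. The Tdgf1 loop at 2.38 lies farthest out, and no symbol is called on the vertical axis.

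With the interval allele fixed, fewer loops were called. D2-13B6 minus B6 called 5 of 74 loops (3 higher, 2 lower), where 5.95% of all were called (3.29% higher, 2.66% lower; 1470 and 1190 loops, which became 1222 and 1428 with library totals, 1224 and 1326 with the trend removed and 490 and 302 with DESeq2), and the anchors of Tdgf1 (0.80, SE 0.120, FDR 1.00e-07) and Lefty1 (0.58, SE 0.148, FDR 0.00224), where 19.8% were (10.5% higher, 9.37% lower). The 2222 higher and 1988 lower anchors became 1601 and 2842 with library totals, where the median of all moved by -0.11 and the Smad7 anchor was called lower (-0.32, FDR 0.0172), and 1108 and 646 with DESeq2. With the trend removed the Smad7 anchor was also called lower (-0.42, FDR 0.000693). The Lefty2 anchor was called higher with RLE (0.34, FDR 0.0483) and without chromosome 11 (0.37, FDR 0.0321). D2 minus B6-13D2 called 3 loops (1 higher, 2 lower), where 3.57% of all were called (1.48% higher, 2.09% lower; 660 and 936 loops, which became 739 and 712 with the trend removed), and 0 of 6 anchors, where 14.3% were (5.98% higher, 8.29% lower). These 1269 higher and 1759 lower anchors became 1801 and 1237 with library totals, where the median of all moved by 0.10 and the anchors of Tdgf1 (0.41, FDR 0.00615) and Skil (0.63, FDR 0.0283) were called higher. The same 2 anchors were called higher with the trend removed (0.48, FDR 0.000415, and 0.58, FDR 0.0484). With TMM scaling, D2 minus B6-13D2 at Tdgf1 was 0.30 (SE 0.122, FDR 0.0816). In that contrast, 3 of the 6 anchors had an unadjusted p under 0.05 in edgeR, against 26.5% of all anchors, and DESeq2 called 0.

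The wider pathway was read from a list of 48 other genes, of which 34 had a tested promoter anchor, 45 anchors in all. For background, 3 were higher and 3 lower, 13.3% against the 24.8% of all anchors, with a median of 0.023 against 0.0060. The higher ones were Smurf2, a ubiquitin ligase that limits SMAD signalling (0.56, SE 0.144, FDR 0.00168), Smad4, the common partner of the receptor-activated SMADs (1.23, SE 0.393, FDR 0.0135), and the TGF-beta receptor Tgfbr2 (0.91, SE 0.351, FDR 0.0446). Smurf2 lies on chromosome 11, and it stood at 39.0 ± 2.18 CPM in D2 and 46.8 ± 1.46 in D2-13B6 against 27.6 ± 2.53 in B6 and 30.9 ± 4.58 in B6-13D2 (SD, n = 2 each). Smad4 and Tgfbr2 were low, at 2.8 to 8.88 CPM as line means. The lower ones were Nomo1, part of a complex with Nicalin that limits Nodal signalling (-0.58, SE 0.153, FDR 0.00245), the SMAD corepressor Ski (-0.40, SE 0.132, FDR 0.0181) and the organizer gene Gsc (-0.83, SE 0.298, FDR 0.0307). The called Nomo1 anchor also holds a start of Abcc6. Nomo1 and Ski each had another anchor that was not called (-0.38, FDR 0.463, and 0.093, FDR 0.799). With DESeq2 none of these 6 was called (FDR 0.0566 to 0.262), and Tgfbr2 also lost its call with the trend removed (0.84, FDR 0.064).

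By role, 0 of 2 ligand anchors, 1 of 6 processing, 1 of 3 receptor, 1 of 12 transducer, 2 of 17 inhibitor and 1 of 5 target anchors were called for background. The interval effect called 0 of the 45, against 6.15% of all anchors. The interaction called 3, or 6.67% against 4.74% of all anchors, all of them lower, as were 783 of the 1005 called over all anchors. They were those of the phosphatase gene Ppm1a (-0.86, SE 0.194, FDR 0.00255), the pluripotency gene Pou5f1 (-0.59, SE 0.158, FDR 0.0134) and the repressor gene Tgif1 (-0.49, SE 0.150, FDR 0.0371). All 3 kept their calls with RLE scaling, with DESeq2 and without chromosome 11. With library totals Ppm1a kept its call (-0.64, FDR 0.0333) and Tgif1 lost it (-0.28, FDR 0.203), like Pou5f1. With the trend removed all 3 lost it, at -0.61 (FDR 0.0619) for Ppm1a, and Tgif1 turned to 0.050 (FDR 0.9). No tested anchor was found for 14 genes, among them the receptors Acvr1b, Acvr1c, Acvr2a and Tgfbr1, the ligands Gdf1, Inhba, Inhbb and Tgfb2, and the germ layer genes T, Eomes and Mixl1.

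As a description over 8 libraries, the promoter anchors elsewhere whose log2 CPM followed each gene most closely differed from gene to gene. Libraries share depth and background within a line, so these values carry no test. For Nodal they were the anchors of Oxnad1 (Pearson r 0.978), of Cacna1a, Ier2, Nacc1 and Trmt1 (0.975) and of Ttc39b (0.974). For Tdgf1 they were a cluster of Fau, Mrpl49, Tm7sf2, Vps51 and Znhit2 (0.994), the anchor of Cd79a, Dmrtc2 and Rps19 (0.984) and that of Trak1 (0.979). Lefty1 was followed most closely by Stox2 (0.981), with a cluster of Atn1 and Eno2 also near the top (0.966), and Lefty2 by Trim38 (0.957), Rab19 with Slc37a3 (0.940) and Auts2 (0.939). Smad7 was followed by Tle3 (0.965), Bcl9 (0.959) and Tanc1 (0.953), and Skil by the activin antagonist gene Fst (0.963), Setd2 (0.958) and Trdmt1 (0.945). For each gene 11015 to 11052 anchors were searched.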

How the data were processed

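H3K27ac HiChIP was measured in 8 libraries of 4 mouse embryonic stem cell lines. The deposited values were whole-number counts of read pairs per loop, not normalized as their unequal totals show, and matching counts per pair of 5-kb bins for each library. Per the submitters' processing notes, BWA 0.7.18, SAMtools 1.19.2 and edgeR 3.34.1 were used with mm10. Their roles and the loop caller are not given in the sources used here. Per-sample columns that matched no sample numbered 0.

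Starts came from GENCODE M21 (GRCm38). Coordinates are 1-based. Counts were tested as deposited with edgeR 4.0.16 in R 4.3.3, by the quasi-likelihood test, TMM scaling, a separate mean for each line and the 8 libraries fitted together; p-values were adjusted by Benjamini and Hochberg (FDR) over every tested loop (at least 5 counts in at least 2 libraries) or anchor sums (at least 10 in at least 2). A loop between 2 anchors counts once at each. CPM values use the TMM factors, and a standard error (SE) is the size of the log2 fold change over the root of F. On simulated data for the background effect with 45007 loops and 21260 anchors, the test recovered 32% of loops and 87% of anchors changed 2-fold, and 91% and 100% changed 4-fold. The simulation gave every feature the same fixed dispersion and the lines no other difference, so its rates need not hold for the real libraries.

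The genes, the pathway and marker lists and the settings were chosen with earlier results of these data known. Named are all 6 genes, their anchors, their 3 strongest tested loops, every loop called in any of 7 contrasts, pathway genes called in either averaged contrast (and, chosen after their values were seen, in the interaction), and the 3 most alike promoter anchors at least 2 Mb away. Of these, 1 loop and 1 alike anchor are not reported here. Replicates differed by more than sampling noise (chi-square over degrees of freedom 1.05 to 1.21 across loops), so none were merged. Alternatives were other scaling (RLE, library totals, abundance trend removed), no or a stricter filter (10 or 20 counts), DESeq2 1.42.0, chromosome 11 left out, a replicate block, each library left out, and start windows of 0 and 10 kb. Anchor sums without their called loops and sums per 5-kb bin were added after seeing the data. Leaving out a called loop moves the anchor's effect away from that loop's direction by construction. Promoters came from RefSeq, and Lefty anchors were aligned with blastn 2.17.0. No molecular identifiers are named in the sources used here, so intervals cover counting error only.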

Additional observations from a re-analysis of the deposited data

How the results depend on the processing

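Loops with few counts set the limits here. Several calls on loops with few counts depended on single libraries, as given beside them, and 2-fold changes of loops were often missed in the simulation. The loops of Tdgf1 at 110975001 and of Smad7 at 75205001 kept their background call in all 16 fits run. The counts of called loops and anchors varied as follows, and where no cause is named, the cause was not tested.

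For the background effect, 7 loops became 3 with no filter, where more loops are tested, and 2 with DESeq2, and 4 to 7 with 1 library left out. The 2 anchors became 4 with the abundance trend removed and 1 with DESeq2, and 2 to 4 with 1 library left out. For D2-13B6 minus B6, 5 loops became 2 with no filter and 1 with DESeq2 (2 to 5 with 1 library left out), and 2 anchors became 1 with DESeq2 (1 to 3). For D2 minus B6-13D2, 3 loops became 5 with the stricter filter and 1 with DESeq2 (1 to 4), and 0 anchors became 2 with library totals, 2 with the trend removed and 2 with the stricter filter (0 to 1). For the interaction, 0 anchors became 2 with no filter and 1 without chromosome 11 (0 to 3). For B6-13D2 minus B6, 0 anchors ranged over 0 to 1 with 1 library left out. For D2 minus D2-13B6, the 1 anchor became 0 with library totals, 0 with the trend removed, 0 with DESeq2 and 0 with the replicate block (0 to 2). The 0 loops of the interval effect, the interaction, B6-13D2 minus B6 and D2 minus D2-13B6 and the 0 anchors of the interval effect were 0 in all 18 alternatives. Single libraries moved these counts by over 1.5 times as follows. Leaving out the second B6 library gave 4 loops for background, and the first B6-13D2 library 4 anchors. For D2-13B6 minus B6, 3 loops were left without the first B6, and 2 loops and 1 anchor without the second B6 or the second D2-13B6 library. For D2 minus B6-13D2, 1 loop was left without the second D2 library, and 1 anchor was called without either B6 library. The interaction had 3 anchors without the first B6 and 2 without the first B6-13D2 library, and B6-13D2 minus B6 had 1 without the first B6 library. D2 minus D2-13B6 had 2 without either B6 library and 0 without any 1 of D2 or D2-13B6. Member windows of 0 and 10 kb moved no count by over 1.5 times.

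Among the 6 genes, signs turned for anchor effects that were not called, and for no called effect run here. In the wider list the called interaction at Tgif1 turned to 0.050 with the trend removed. DESeq2 gave no adjusted p for 5 of the called loop contrasts, which are left out of the counts of lost calls. The Nodal background effect was 0.0011 with the trend removed, 0.0012 with the stricter filter, 0.0025 with DESeq2 and 0.014 without chromosome 11, and -0.078 to 0.085 with 1 library left out. The Smad7 interval effect was 0.00069 with RLE, 0.016 with library totals, 0.026 with the trend removed and 0.0036 with the stricter filter (-0.073 to 0.061 with 1 library left out). The Lefty1 interval effect was -0.0037 without chromosome 11 and -0.0016 without its called loop (-0.14 to 0.27). Without its called loops, Skil gave -0.00087 for background and 0.063 for the interval (interval -0.16 to 0.034 with 1 library left out). With 1 library left out, the Lefty2 interval effect ran from -0.025 to 0.088 and that of Tdgf1 from -0.14 to 0.039.

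Over all loops, the 3956 background calls were 1244 to 4111 across settings, the 442 interval calls 107 to 616 and the 269 interaction calls 90 to 365; over all anchors, 5254 were 2436 to 5353, 1305 were 374 to 1501 and 1005 were 372 to 1184. With 1 library left out, interval calls were 152 to 489 loops and 503 to 1723 anchors, and interaction calls 94 to 283 loops and 244 to 1190 anchors. For D2-13B6 minus B6, D2 minus B6-13D2, B6-13D2 minus B6 and D2 minus D2-13B6, loop calls of 2660, 1596, 393 and 407 fell to as few as 792, 429, 114 and 119, and anchor calls of 4210, 3028, 1114 and 1207 to 1754, 1134, 408 and 308.

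Replicate numbers did not pair libraries. Deviations of same-numbered libraries from their line means correlated at -0.0496 to 0.00431 over loops and -0.155 to 0.0261 over anchors. With the replicate block, the pairing fit, 173 loops were called for the interaction in place of 269, the Skil anchor's inside loop gave 1.58 (FDR 0.0647), and the Nodal call in D2 minus D2-13B6 was lost.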
